A study of Homo sapiens with 2 samples.

Results

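The genes described here are 10 genes of mucosal defence and the acute phase response, LCN2, SLPI, DEFB1, PI3, SERPINA3, PIGR, SAA1, SAA2, FGB and CD14, taken by gene name from the table of each library and joined by gene identifier. They were selected on their FPKM in these same 2 libraries, so their levels and folds are a description and carry no test. Of the 10, 9 were listed in both libraries, among 18786 gene symbols listed in both, and SAA2 was listed in neither. Expression was measured by RNA sequencing of total RNA from A549, an established human lung adenocarcinoma cell line. The control culture carried a retroviral vector alone, and the other a retrovirus with ATOH8, both by stable transduction. The ATOH8 protein is a transcription factor of the basic helix-loop-helix class. Whether either culture was a clone or a pool is not given in the sources used here. With 1 library per group there was no spread between replicates, no difference could be tested, and every comparison below is between these 2 libraries.

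Epithelia of the airways and gut secrete proteins that limit microbes and the tissue damage of inflammation. Lipocalin 2 binds bacterial siderophores and so withholds iron, beta-defensins are antimicrobial peptides, and SLPI and elafin block neutrophil serine proteases. The acute phase response is the change in plasma proteins during inflammation, made mostly by the liver and driven by IL-6 and IL-1 through STAT3, C/EBP and NF-kB factors. Serum amyloid A, fibrinogen and antichymotrypsin belong to it, and some of these genes are also used by lung epithelial cells.

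In the ATOH8 library LCN2, SLPI, DEFB1, SERPINA3 and CD14 stood 8.17 to 55.3 times above the vector library, FGB stood lower, and PI3, PIGR and SAA1 were under 1 FPKM in both. The unit is FPKM, fragments scaled to transcript length and to the mapped fragments of the library. This scaling does not remove an offset between libraries: the summed FPKM was 540101 with the vector and 502502 with ATOH8. Each fold is the difference of log2(FPKM + 1), ATOH8 less vector, and the added 1 FPKM shrinks the fold of low genes. Genes that averaged 1 FPKM or more over both libraries are called measured below, and 6 of the 9 listed genes were measured. LCN2, DEFB1 and SERPINA3 were under 1 FPKM with the vector and passed the filter through the ATOH8 library alone, so they could only pass by differing. Of the 6, 5 were 2-fold or more above the vector level and 0 were 2-fold or more below it. Among all 12342 measured genes, 6.24% (770 genes) were that far above and 19% (2340 genes) that far below. Relative to the median gene, whose log2 fold was -0.36 among genes averaging 5 FPKM or more, the background was 12.8% above (1579 genes) and 9.46% below (1168 genes). The members were picked for this contrast, so nothing is read from the difference to the background. The median log2 fold was 2.26 over the 9 listed genes, against -0.09 over all 18786 symbols listed in both libraries. Over the 6 measured members it was 3.56, against -0.30 over all 12342 measured genes.

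**Figure D1:**
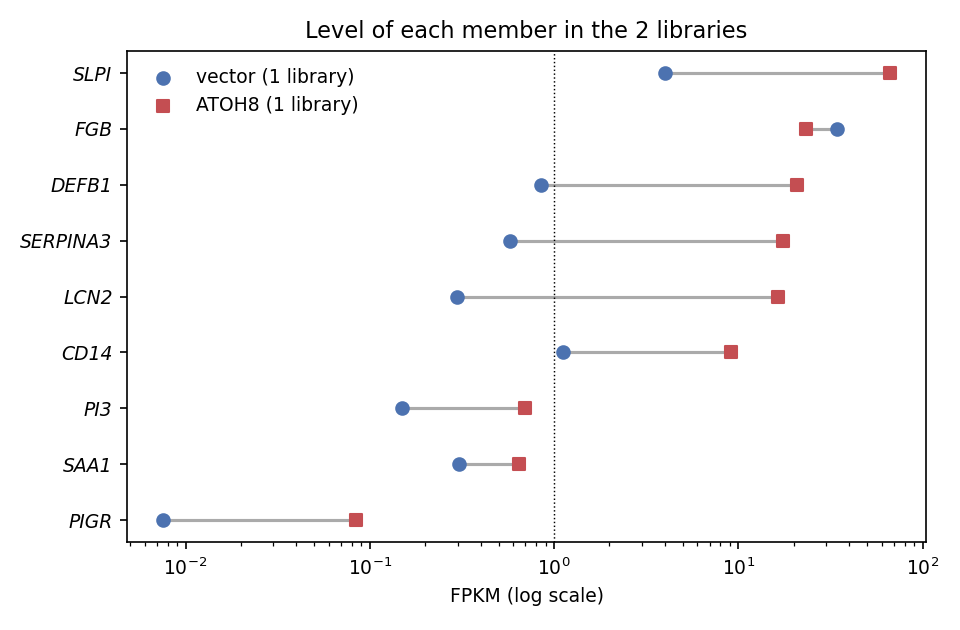
FPKM (log axis) of the 9 listed genes in the vector library (circles) and the ATOH8 library (squares), 1 library each, with the filter level of 1 FPKM dotted. FGB alone has its ATOH8 value (23.2) left of its vector value (34.2), and PI3, SAA1 and PIGR stay left of the dotted line in both libraries.

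LCN2, which encodes lipocalin 2 (ENSG00000148346, chr9:128149071-128153455, plus strand, GRCh38), was at 0.297 FPKM with the vector and 16.4 FPKM with ATOH8. This ratio of 55.3 was the widest among the 9 genes, and the log2 fold of 3.75 was number 6 from the top of 12342 genes. By level, LCN2 moved from percentile 22.1 to percentile 81.5 of the 18786 listed symbols. In the authors' deposited table LCN2 was marked up with a q-value of 3.87e-08, a value that compares 2 libraries and not the conditions.

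SLPI encodes the secretory leukocyte peptidase inhibitor, which blocks neutrophil elastase and cathepsin G at mucosal surfaces (ENSG00000124107, chr20:45252239-45254564, minus strand). It was at 4.02 FPKM with the vector and 66.3 FPKM with ATOH8, the highest level reached by any of the 9 genes. The log2 fold of 3.74 (rank 7) was close to that of LCN2, while the ratio of 16.5 was smaller, because the pseudocount weighs more on the lower gene. With a pseudocount of 0.1 FPKM the log2 folds were 5.38 for LCN2, 4.71 for SERPINA3, 4.46 for DEFB1 and 4.01 for SLPI, so the order among these 4 genes depended on that setting. SLPI alone of the 4 was above 1 FPKM in the vector library, at percentile 51.6 of the listed symbols.

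DEFB1 encodes beta-defensin 1, an antimicrobial peptide that many epithelia make without stimulation (ENSG00000164825, chr8:6870575-6878022, minus strand). It was at 0.853 FPKM with the vector and 20.9 FPKM with ATOH8, with a ratio of 24.5 and a log2 fold of 3.56 (rank 8). The locus that the file gives for DEFB1, chr8:6808517-6885276, holds 2 protein-coding genes, DEFB1 and XKR5. XKR5 lies 34.9 kb from DEFB1 without overlap, had no entry for the vector and was at 0.0261 FPKM with ATOH8. Whether DEFB1 shares reads with other gene models in that locus was not tested.

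SERPINA3 encodes alpha-1-antichymotrypsin, an acute phase inhibitor of cathepsin G and chymotrypsin-like proteases. The files hold 2 rows under this name. The row of ENSG00000196136 (chr14:94612377-94624055, plus strand) was at 0.117 and 4.23 FPKM, and the row of ENSG00000273259 (chr14:94592058-94624646), which GENCODE 29 names AL049839.2, at 0.458 and 13.3 FPKM, vector against ATOH8. The 2 gene models overlap, so the same reads may be divided between them, and the higher row is not the one GENCODE calls SERPINA3. Both rows carry the file locus chr14:94561091-94624646, which holds 4 protein-coding genes, SERPINA4 and SERPINA5 among them. How reads were divided in that locus was not tested. Both rows differed in the same direction, by ratios of 36.0 and 29.1. Summed, SERPINA3 was at 0.576 and 17.6 FPKM, a log2 fold of 3.56 (rank 9).

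CD14 encodes a receptor that hands bacterial lipopolysaccharide to TLR4 and is best known from monocytes (ENSG00000170458, chr5:140631728-140633701, minus strand). It was at 1.12 FPKM with the vector and 9.14 FPKM with ATOH8, with a ratio of 8.17 and a log2 fold of 2.26 (rank 65). The authors' deposited table marked 5 of the 10 genes up (LCN2, SLPI, DEFB1, SERPINA3 and CD14) and 0 down, where 4.33% of the gene identifiers listed in both libraries were marked up and 10.2% down. The q-values in the authors' deposited table were 6.32e-06 for SLPI, 1.56e-05 for DEFB1 and 0.000138 for CD14. The authors' ratios come from these same FPKM, so the marks are no independent evidence.

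**Figure D2:**
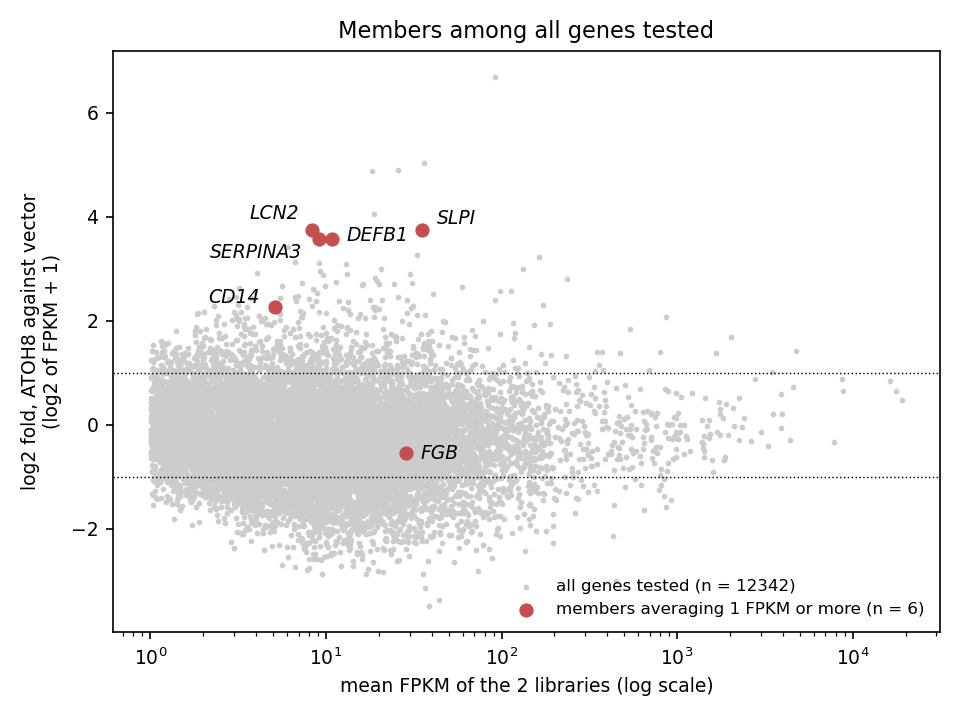
Log2 fold of ATOH8 against vector (vertical axis) by mean FPKM (horizontal log axis) for 12342 genes, with the 6 measured members named and 2-fold differences dotted. LCN2, SLPI, DEFB1 and SERPINA3 lie between 3.56 and 3.75, CD14 lies at 2.26, and FGB lies inside the 2-fold lines.

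FGB, the gene of the fibrinogen beta chain (ENSG00000171564, chr4:154562956-154571086, plus strand), was at 34.2 FPKM with the vector and 23.2 FPKM with ATOH8. It had the highest vector level of the 9 genes and made up 82.4% of their summed FPKM there, against 15.0% in the ATOH8 library. The log2 fold of FGB was -0.54 with the FPKM as deposited and -0.18 relative to the median gene, inside 2-fold on both scales. Fibrinogen is a hexamer of paired alpha, beta and gamma chains, whose genes lie side by side on chromosome 4, and the other 2 chain genes stood on the opposite side. FGA was at 21.3 and 41.2 FPKM, a log2 fold of 0.92, and FGG at 14.4 and 21.5 FPKM, a log2 fold of 0.55. FGB therefore went from the most abundant of the chain transcripts in the vector library, 48.9% of the 3 together, to 27.0% in the ATOH8 library, and the level of FGB over that of FGA went from 1.60 to 0.562.

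All 3 fibrinogen transcripts were AT-rich, with a GC content of 43.4% for FGA, 41.4% for FGB and 38.7% for FGG, against a median of 48.5% over the measured genes. Folds followed GC content in this pair of libraries, so each chain was read against the measured genes of its own decile of GC content. The median log2 fold in the decile that holds FGB was -0.72, and 61.7% of its 1231 genes lay below FGB. FGA and FGG lay above 96.3% and 96.5% of the genes of their own deciles. With a smooth curve of fold on GC content subtracted, FGB turned from -0.54 to 0.23, and FGA and FGG came to 1.52 and 1.51. The direction for FGB thus depended on the correction, while its lower position beside the other chains did not. The part of GC content in these values was not tested.

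**Figure D3:**
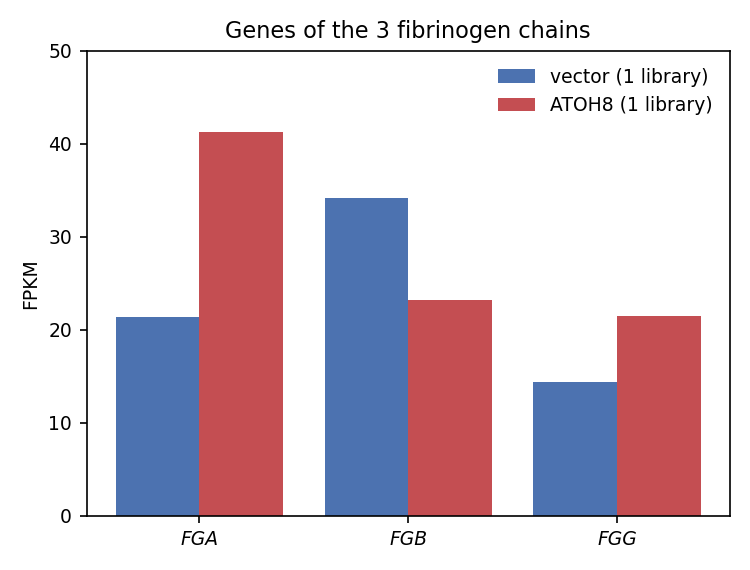
FPKM of the 3 fibrinogen chain genes in the vector and ATOH8 libraries, 1 library per bar. FGB is the tallest of the 3 in the vector library (34.2) and FGA in the ATOH8 library (41.2).

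The 3 low members were higher in the ATOH8 library and stayed under 1 FPKM there. PI3 encodes elafin, an inhibitor of neutrophil elastase and proteinase 3 (ENSG00000124102, chr20:45174876-45176544, plus strand), and was at 0.149 and 0.695 FPKM. SAA1 encodes serum amyloid A1, a major acute phase lipoprotein component (ENSG00000173432, chr11:18266174-18269977, plus strand), and was at 0.304 and 0.649 FPKM. PIGR encodes the polymeric immunoglobulin receptor, which carries IgA and IgM across epithelia (ENSG00000162896, chr1:206928518-206946466, minus strand), and was at 0.00758 and 0.0846 FPKM. Their log2 folds were 0.56, 0.34 and 0.11, and none of them was in the authors' deposited table. With 1 FPKM added, 2 values under 1 FPKM cannot differ by 2-fold, so the size of these folds was bounded beforehand. The ratios without it were 4.67 for PI3, 2.13 for SAA1 and 11.2 for PIGR.

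How few fragments lie behind such values can be judged from the FPKM multiplied by the transcript length in kilobases, which is proportional to the number of fragments. This product was read among genes with 1 annotated transcript, short ones left out. Its fullest class lay from 0.03 to 0.04 in the vector library (154 of 2075 genes). In the ATOH8 library it lay from 0.04 to 0.05 (76 of 2030 genes), and 12 and 16 genes lay under 0.02. These steps were blurred, so fragment counts were not recovered, and no counting interval is given. PIGR in the vector library had a product of 0.0325, at that lowest step, and 0.362 in the ATOH8 library. PI3 had 0.0859 and 0.401, and SAA1 had 0.205 and 0.438. By the same measure LCN2 had 0.260 and 14.4, and DEFB1 0.408 and 9.98. The vector values of PI3 and PIGR thus lay near those lowest classes, and the depth behind their ratios is small. The vector products of SAA1, LCN2 and DEFB1 were also low, beside 2.39 for SLPI and 2.11 for CD14. The ratios of LCN2 and DEFB1 thus rest on low vector values too. The transcripts of DEFB1, PI3, SAA1 and LCN2 (478, 577, 675 and 877 bases) were too short for that set, so their products compare with it only loosely.

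SAA2 (ENSG00000134339, chr11:18239223-18248643, minus strand), the near-identical neighbour of SAA1 at a distance of 17.5 kb, was listed in neither file. The files list no value of 0, so an unlisted gene may be at 0 or have no estimate. Reads shared by the 2 copies could have been assigned to either, so the value of SAA1 is uncertain too. SAA4 in the same cluster was listed in the ATOH8 file alone, at 0.0680 FPKM.

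The RefSeq promoter table (GRCh38.p14) held a promoter for 5 of the 10 genes, LCN2, SERPINA3, CD14, FGB and PIGR. The stretches below show the most widely separated gene, LCN2, beside the gene that stood lower, FGB. Each covers the part of the 250 bases before the RefSeq start that no GENCODE 29 exon overlaps, written 5′ to 3′ on the gene's strand. The 2 stretches differ in place: that of LCN2 lies inside the GENCODE span of the gene, which starts at 128149071. That of FGB ends just before the GENCODE start at 154562956. Capitals mark matches on either strand to the letters GGGNNNNNCC (a loose NF-kB pattern), TTCNNNGAA (STAT) or TTNNGNAA (a loose C/EBP pattern), patterns picked with the sequences in view.
LCN2, chr9:128149265-128149440, plus strand: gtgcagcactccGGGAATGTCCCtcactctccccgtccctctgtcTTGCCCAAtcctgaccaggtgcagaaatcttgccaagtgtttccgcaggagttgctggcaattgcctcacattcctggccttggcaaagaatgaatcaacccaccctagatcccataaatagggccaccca
FGB, chr4:154562730-154562955, plus strand: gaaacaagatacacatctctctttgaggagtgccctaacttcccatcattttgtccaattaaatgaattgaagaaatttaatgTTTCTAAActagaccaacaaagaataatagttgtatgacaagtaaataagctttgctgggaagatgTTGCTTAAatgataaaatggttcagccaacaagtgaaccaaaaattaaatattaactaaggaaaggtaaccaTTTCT

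In the LCN2 stretch, GGGNNNNNCC matched on both strands at overlapping positions, 176 to 166 bases before the start, and TTNNGNAA matched at 143 to 136 bases. The FGB window held no GGGNNNNNCC, and TTNNGNAA matched 3 times on the minus strand, the last match running into the first exon. SERPINA3 had a GGGNNNNNCC match at 67 to 58 bases before the start that overlapped a TTNNGNAA match at 63 to 56 bases. The SERPINA3 window was free of annotated exons only from 250 to 95 bases, so both matches lay in exon sequence. CD14 had the only TTCNNNGAA match among the 5 windows, at 123 to 115 bases, and a TTNNGNAA match at 33 to 26 bases. The CD14 window held 0 bases outside annotated exons, so these CD14 matches lay in exon sequence too. Motif matches were read over whole windows, annotated exons included. The motif CANNTG, the E-box that basic helix-loop-helix factors bind, matched 4 times in LCN2, 3 times in PIGR, 2 times in SERPINA3, 1 time in FGB and 0 times in CD14. Such matches are common: of 27305 promoter windows of 250 bases, 53.7% held GGGNNNNNCC, 6.78% TTCNNNGAA, 33.6% TTNNGNAA and 62.2% CANNTG. They describe letters and not binding. The FGB window was AT-rich, with 33.2% GC against 54.8% for LCN2 and a median of 58% over all windows.

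The longest transcripts of the 10 genes had a median length of 949.5 bases, against 3486 bases over the measured genes, and the longest of them, that of PIGR with 4279 bases, lay above the median of the measured genes. Their GC content ran from 41.4% (FGB) to 58.0% (CD14), with a median of 52.9%. With the GC curve subtracted, LCN2, SLPI, DEFB1, SERPINA3 and CD14 kept log2 folds of 3.66, 3.82, 3.81, 3.62 and 2.14.

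Genes next to the members were read for their direction. Within 100 kb of a member lay 54 other protein-coding genes, 34 of them listed in both libraries and 28 measured. Of these 28, 3 lay 2-fold or more above and 4 that far below the vector level, with a median log2 fold of -0.16. Over all 12342 measured genes, 6.24% lay that far above and 19% that far below, with a median of -0.30. With so few neighbours, nothing particular to them is read from these counts. The 3 higher were C9orf16 beside LCN2 (14.7 and 37.6 FPKM), SDC4 beside SLPI (13.6 and 29.3 FPKM) and TMCO6 beside CD14 (7.01 and 15.1 FPKM). The 4 lower were PLRG1 beside FGB (27.9 and 7.01 FPKM), YOD1 beside PIGR (5.70 and 1.24 FPKM), IK beside CD14 (56.9 and 21.8 FPKM) and GTF2H1 beside SAA1 and SAA2 (23.9 and 9.98 FPKM). CIZ1, PTGES2, DNM1, SLC25A25 and NAIF1, the other measured neighbours of LCN2, lay between -0.26 and 0.75. Around CD14, NDUFA2, WDR55, HARS, HARS2, SLC35A4, ZMAT2, APBB3, SRA1, ANKHD1 and ANKHD1-EIF4EBP3 lay between -0.86 and 0.58. The remaining measured neighbours were FGA, FGG, STK4 (-0.55), C1orf116 (-0.17), PFKFB2 (-0.68) and HPS5 (-0.64). PI3 and SLPI lie 75.7 kb apart in the WFDC cluster of chromosome 20, and both were higher in the ATOH8 library.

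Other acute phase genes were read beside the members. For this list and those below, the share over all measured genes was 6.24% above and 19% below by 2-fold or more. Relative to the median gene it was 12.8% and 9.46%. The lists were chosen with earlier results known, so nothing is read from a difference to these shares. Of 20 on a list of plasma proteins that increase in the acute phase, 6 were measured, and of those 4 lay 2-fold or more above the vector level and 0 that far below, with a median log2 fold of 1.13. CFB (0.279 and 36.4 FPKM) and C3 (1.10 and 17.1 FPKM), of the alternative complement pathway, led it. CFB passed the filter through the ATOH8 library alone, so its place in that count was fixed by the filter. FGL1, a fibrinogen-related liver protein gene (15.9 and 38.1 FPKM), and CP, the ceruloplasmin gene (5.76 and 12.99 FPKM), were the other 2. LBP, whose protein carries lipopolysaccharide to CD14, went from 0.0175 to 1.40 FPKM, and SERPINA1, the elastase inhibitor alpha-1-antitrypsin, from 0.225 to 1.77 FPKM. Both had a mean under 1. CRP, APCS, ITIH3 and HAMP were listed in neither library, and ORM2, A2M, SAA4 and HP in 1 library each.

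Most other mucosal defence genes averaged under 1 FPKM or were not listed in both libraries. Of 25 on that list, 1 was measured, ANG, the gene of the ribonuclease angiogenin (9.65 and 20.8 FPKM, log2 fold 1.03). Its log2 fold was 0.81 with a pseudocount of 5 FPKM and 0.98 with the GC correction, both inside 2-fold. A further 6 were listed in both libraries at lower levels, 7 in 1 library and 11 in neither, LTF, CAMP, S100A8 and WFDC2 among the last. Of 13 other epithelial protease inhibitors, 4 were measured, with 0 differing by 2-fold and a median log2 fold of 0.68. SPINT2 (216 and 410 FPKM), SERPINB1 (35.6 and 59.1 FPKM), CST3 (116 and 183 FPKM) and CSTB (27.3 and 28.95 FPKM) were these 4. Relative to the median gene, 3 of the 4 (SPINT2, SERPINB1 and CST3) exceeded 2-fold.

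The receptors and ligands that the members act with were uneven. Of 19, 7 were measured, 2 of them above by 2-fold or more and 0 below, with a median log2 fold of 0.85. Measured from the median gene 4 of the 7 exceeded 2-fold, and with a pseudocount of 5 FPKM 0 did. SLC22A17, a lipocalin 2 receptor gene, was at 3.23 and 9.27 FPKM, and PRTN3, the gene of proteinase 3, a target of elafin, at 0.353 and 2.16 FPKM. PRTN3, too, passed the filter through the ATOH8 library alone. SCARB1, a lipoprotein receptor that also binds serum amyloid A, was at 53.1 and 96.4 FPKM. ELANE, the neutrophil elastase gene, was at 0.108 and 1.61 FPKM, and ICAM1, an adhesion receptor that binds fibrinogen, at 0.0463 and 1.22 FPKM, both with a mean under 1. JCHAIN, whose product joins the polymeric immunoglobulins that PIGR carries, was at 0.0324 and 0.328 FPKM.

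The rest of the lipopolysaccharide pathway was read beside CD14. The signalling partners of CD14, TLR4 and LY96, were listed in the ATOH8 library alone, at 0.0304 and 0.345 FPKM. Of 14 genes of that pathway, 7 were measured, 1 of them above by 2-fold or more and 0 below, with a median log2 fold of -0.11. IRAK2 was at 2.70 and 6.62 FPKM and TICAM1 at 2.80 and 5.28 FPKM, while IRAK1 was at 67.2 and 49.3 FPKM and TIRAP at 2.16 and 1.54 FPKM. LBP, also on this list, had a log2 fold of 1.24 with a mean under 1 FPKM, and it was marked up in the authors' deposited table with a q-value of 0.000874. Measured from the median gene 2 of the 7 exceeded 2-fold. With a pseudocount of 5 FPKM or a filter at 5 FPKM, 0 genes of the list did. The sign of the list's median depended on the scaling and was positive relative to the median gene, at 0.25.

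Among 27 genes of IL-6, IL-1 and IL-17 signalling, 18 were measured, 3 of them above by 2-fold or more and 1 below, with a median log2 fold of 0.32. BCL3 (19.3 and 60.9 FPKM) and NFKBIZ (1.13 and 3.44 FPKM) encode nuclear IkB proteins, and NFKBIZ is known as a coactivator at LCN2. SOCS3, a feedback inhibitor of STAT3 signalling, was at 3.94 and 8.95 FPKM. IL6ST, the gp130 receptor shared by IL-6 family cytokines, was at 16.4 and 6.13 FPKM, and STAT3 at 32.1 and 32.0 FPKM. IL6 and IL1B were listed in the ATOH8 library alone, at 0.0574 and 1.88 FPKM. Measured from the median gene, 6 of the 18 lay above by 2-fold or more and 0 below. With a pseudocount of 5 FPKM, 1 lay that far above and 0 below.

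Of 18 transcription factor genes known to act at such promoters, 17 were measured, 1 of them above by 2-fold or more and 0 below, with a median log2 fold of 0.02. That gene was ELF3, an epithelial ETS factor, at 68.5 and 163 FPKM. SPDEF, a goblet cell factor, was at 6.35 and 12.3 FPKM and the NF-kB subunit gene RELB at 4.94 and 9.23 FPKM, while the epithelial ETS factor gene EHF was at 4.67 and 2.29 FPKM. Measured from the median gene, 4 of the 17 exceeded 2-fold. Over all measured genes 6.24% lay that far above as deposited and 12.8% relative to the median gene.

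**Figure D4:**
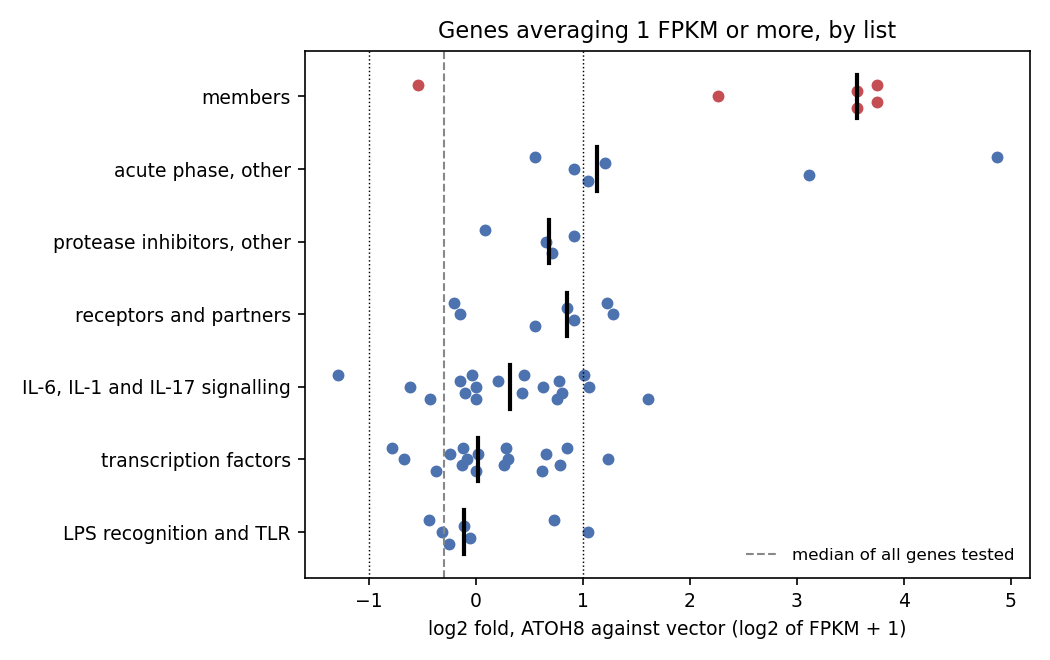
Log2 fold of ATOH8 against vector for each measured gene, by list, with list medians as black bars, 2-fold differences dotted and the median of all 12342 genes (-0.30) dashed. The members other than FGB lie from 2.26 to 3.75, and CFB (4.87) and C3 (3.11) of the other lists plotted reach or exceed that range, as do MUC5B (4.06) and CD68 (2.38) of the marker lists that are not plotted.

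Both libraries carried the epithelial markers of A549: KRT8 was at 2381 and 2302 FPKM and KRT18 at 2486 and 2012 FPKM, and the 6 epithelial markers summed to 5849 and 5840 FPKM, nearly all of it from keratins. CDH1, the E-cadherin gene, was the only one of the 5 measured that lay 2-fold or more above the vector level, at 15.4 and 54.1 FPKM. KRT7 was at 965 and 1470 FPKM and EPCAM at 1.70 and 2.23 FPKM, while KRT19 had 0.219 and 0.07004 FPKM. In bulk RNA, fewer cells of a type and less RNA per cell cannot be told apart. Because CD14 marks monocytes, 11 leukocyte markers were read: they summed to 3.04 FPKM with the vector and 17.0 FPKM with ATOH8, of which CD68 made up 2.14 and 15.4 FPKM and ITGAM, an integrin of myeloid cells, 0.706 and 1.32 FPKM. PTPRC, the pan-leukocyte gene, had no entry for the vector and 0.0111 FPKM with ATOH8, and MPO, FCGR3B, CD3E and S100A12 were listed in neither. The 9 hepatocyte markers summed to 0.565 and 1.67 FPKM, with ALB at 0.0723 and 0.178 FPKM, and CYP3A4, F9 and APOA2 were listed in neither. The 6 fibroblast markers summed to 0.756 and 0.800 FPKM. The 8 airway club and goblet cell markers summed to 7.89 and 52.4 FPKM, led by MUC5B (1.25 and 36.5 FPKM) and MUC5AC (0.203 and 3.42 FPKM), while SCGB1A1, SCGB3A1, SCGB3A2 and BPIFA1 were listed in neither library. Their part in the values of LCN2, SLPI and DEFB1 was not tested.

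**Figure D5:**
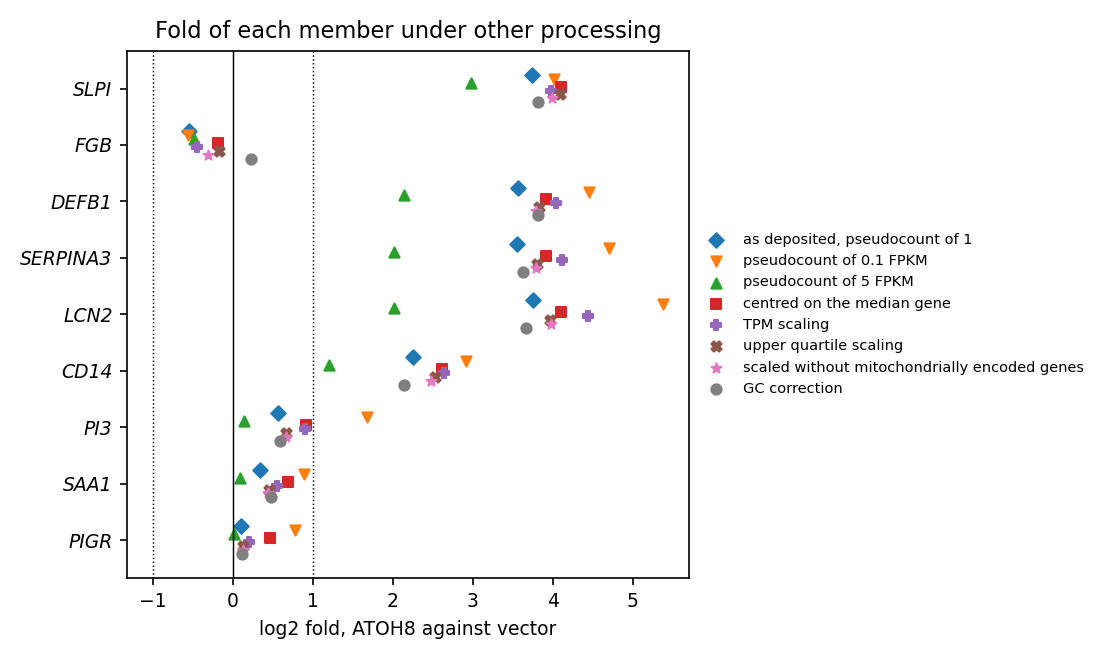
Log2 fold of each of the 9 listed members under 8 ways of processing (symbols), with 0 as a line and 2-fold differences dotted. LCN2, SLPI, DEFB1, SERPINA3 and CD14 stay right of the dotted line at 1 under each of them, PI3 crosses it with a pseudocount of 0.1 FPKM, and FGB crosses 0 with the GC correction.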

How the data were processed

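RNA sequencing of 1 vector and 1 ATOH8 library of A549 cells was analysed. Per the submitters' processing notes the tools named were CASAVA, HISAT2 and Cufflinks 2.2.1 with the build hg38 (GRCh38), without the role of each. Annotation, strand setting and depth: not given in the sources used here. Per the file headers the authors deposited FPKM, 1 table for each library, and a table of their own comparison with log2 ratios, p-values and q-values. Its 2 FPKM columns fit no sample label and stayed unused.

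The 2 FPKM tables were merged on the identifier, adding up rows of the same symbol (Python 3.11.15, pandas 2.3.3). Folds used a pseudocount of 1 FPKM and a rule of size of 2-fold. The filter was an average of 1 FPKM, and genes past it are called measured. The calculation was checked on simulated data with an assumed noise, which says nothing about the spread between real libraries. Since the groups hold 1 library each, no test was run. Positions, transcript length and GC content are from GENCODE 29, matched for 99.8% of the measured genes. For the GC correction a lowess curve was subtracted (fraction 0.3, statsmodels 0.14.6), and promoters are RefSeq's. The members, the 13 other gene lists and the rules were chosen with earlier results of these data known. Named were the members, up to 4 genes of each list with the largest absolute fold among measured genes, measured protein-coding genes within 100 kb, and the 5 genes nearest to the members' median position. Further genes of the lists were named after their values were seen. Alternatives were other pseudocounts, filters and scalings, the highest row of a shared symbol and the GC correction. A further leukocyte marker is not reported here.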

Additional observations from a re-analysis of the deposited data

How the results depend on the processing

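Under each of the 10 alternatives 5 members stood 2-fold or more above the vector level and 0 that far below, where members under a filter drop out. The log2 folds ranged from 2.02 to 5.38 for LCN2, 2.98 to 4.10 for SLPI, 2.14 to 4.46 for DEFB1, 2.02 to 4.71 for SERPINA3 and 1.21 to 2.92 for CD14. That of FGB turned to 0.23 with the GC correction, and PI3 reached 1.68 with a pseudocount of 0.1 FPKM. Among genes averaging 5 FPKM or more the median was -0.36 as deposited, -0.27 with TPM, -0.13 when scaled without mitochondrially encoded genes and -0.0048 with upper quartile scaling. Over all genes, 770 above and 2340 below by 2-fold became 1579 and 1168 when centred, 1452 and 1262 with upper quartile scaling, and 287 and 1066 with a pseudocount of 5 FPKM. The higher genes numbered 477 with a filter at 5 FPKM and 1187 without mitochondrially encoded genes, and the lower genes 732 with the GC correction. The median of the lipopolysaccharide list, -0.11, became 0.25 when centred, 0.16 with upper quartile scaling, 0.062 without mitochondrially encoded genes and 0.48 with the GC correction. That of the IL-6, IL-1 and IL-17 list, 0.32, became -0.0015 with no filter. Apart from the changes built into a filter, a pseudocount or a scaling, the cause was not tested. No paired analysis was possible because each group holds 1 library, and for the same reason no replicate could be left out. The unknown depth limits PI3, PIGR and SAA1 most, and it also limits the ratios of LCN2 and DEFB1 through their low vector values.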

Other observations

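By position in the plane of both levels, on the log2(FPKM + 1) scale, the 5 measured genes nearest to the members' median position were C3 (1.10 FPKM with the vector and 17.1 FPKM with ATOH8), the N-cadherin gene CDH2 (1.34 and 17.2 FPKM), the small heat shock protein gene HSPB8 (1.56 and 17.8 FPKM), the aldolase gene ALDOC (1.18 and 13.4 FPKM) and the bradykinin receptor gene BDKRB2 (1.65 and 15.2 FPKM). Their Euclidean distances ran from 0.17 to 0.52. The position holds 2 values per gene, so many genes can share it.

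Of 7 genes of plasma proteins known to decrease in the acute phase, 1 was measured, so the list as a whole could not be read. That gene was RBP4, the retinol carrier, at 1.70 and 6.26 FPKM, a log2 fold of 1.43 that became 0.75 with a pseudocount of 5 FPKM. AHSG, the fetuin-A gene, was at 0.101 and 0.559 FPKM, and TTR, the transthyretin gene, at 0.122 and 0.334 FPKM. In the authors' deposited table RBP4 and AHSG were marked up, with q-values of 0.0160 and 0.0455.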
